A study of Mus musculus with 14 samples.

Results

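NF-κB is a family of transcription factors, and 10 of its genes were followed here across nerve tumors and control tissue. They were the 5 subunit genes *Nfkb1*, *Nfkb2*, *Rel*, *Rela*, and *Relb*, the genes of 3 cytoplasmic inhibitors (*Nfkbia*, *Nfkbib*, and *Nfkbie*), the gene of the nuclear IκB protein (*Nfkbiz*), and *Ikbkb*, the gene of a catalytic kinase of the pathway. The genes were taken by symbol from the 24062 genes of a bulk RNA-seq count table, and all 10 passed the filter on low counts in each comparison.

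The study asked how loss of *Nf1* in Schwann cells (SCs), the glia of peripheral nerve, changes transcripts in plexiform neurofibromas (PNs), which are benign tumors of nerve. The controls were labelled as dorsal root ganglia (DRGs) and came from mice labelled Nf1fl/fl (n = 3, libraries DRG3, DRG4, and DRG5). The methods of the study describe this control tissue as DRGs/nerves. The PNs came from mice labelled DhhCre;Nf1fl/fl, and MRI at 7 and 9 months split them into slow-growing PNs, whose volume changed by less than 5 mm3 (n = 5, libraries 1079, 1198A, 1202, 1203, and 1206), and fast-growing PNs, which grew by more than 35 mm3 (n = 6, libraries 1053, 1071, 1179, 1191, 1214, and 1216). All mice carried floxed *Nf1* on a mixed C57BL/6, I-129, and FVBN background and had no drug treatment. Their age was 9 months in the methods of the study and 7 months in a figure legend. The Dhh promoter drives Cre in the SC lineage, so that other cells of the tumor keep *Nf1*, and a library holds the RNA of the whole tissue. In such bulk RNA, fewer cells of a type and less RNA per cell cannot be told apart. Nothing in the labels says more than that these are separate samples, so a p-value measures the spread between these libraries.

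NF-κB subunits work as dimers that IκB proteins hold in the cytoplasm. In the canonical pathway the IKK complex, through the kinase made from *Ikbkb*, phosphorylates the inhibitors, which are then degraded, and dimers of the *Rela*, *Rel*, and *Nfkb1* products enter the nucleus. In the noncanonical pathway the *Nfkb2* product is processed and moves with the *Relb* product. Several of these genes, among them *Nfkbia*, *Nfkb2*, *Relb*, and *Nfkbie*, are known targets of NF-κB themselves, and the pathway is best known in immune and stromal cells, which are part of a PN.

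Because several members are targets of the family, the letters that NF-κB binds were looked up in their promoters. The RefSeq promoter set (GRCm38.p6) held 6 of the 10 genes, and the 250 bases before each start site were searched on both strands. The κB consensus, GGGRNNYYCC with R for A or G, Y for C or T, and N for any base, was found in *Nfkb2*, *Rel*, *Nfkbia*, and *Nfkbie*. Its letters were not in the windows of *Rela* and *Nfkbib*. Of all 32851 promoters of this length, 7.25% held the consensus, and 45.8% held the looser motif GGGNNNNNCC, which was in each of these genes' windows except that of *Nfkbib*. The windows below run 5′ to 3′ on the strand of the gene, with the matching bases in capitals.
*Nfkb2*, chr19:46304683-46304722, plus strand, match 39 to 30 bases before the start: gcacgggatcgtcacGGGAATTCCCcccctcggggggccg
*Nfkb2*, chr19:46305690-46305729, plus strand, match 225 to 216 bases before another start: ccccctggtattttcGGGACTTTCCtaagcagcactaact
*Rel*, chr11:23771037-23771076, minus strand, match 92 to 83 bases before the start: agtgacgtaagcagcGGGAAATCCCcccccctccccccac
*Nfkbia*, chr12:55492652-55492691, minus strand, match 29 to 20 bases before the start: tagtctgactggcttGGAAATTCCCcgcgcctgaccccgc
*Nfkbie*, chr17:45555579-45555618, plus strand, match 106 to 97 bases before the start: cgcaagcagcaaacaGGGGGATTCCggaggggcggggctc
The match in *Nfkbia* is on the opposite strand of the gene. The first match in *Nfkb2* and that in *Rel* read as a match on both strands, and each overlaps a further match shifted by 1 base. Not printed for *Nfkb2* are a match 11 to 2 bases before its first start and another 236 to 227 bases before a further start. A match describes the sequence and says nothing of binding in these tissues.

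The libraries held between 9596773 and 17594164 counts on genes. The floxed gene *Nf1* was measured at 170 ± 51.5 CPM (TMM-normalized CPM, the counts of a gene scaled to library size, SD, n = 3) in controls and 249 ± 22.8 CPM (SD, n = 11) in PNs, and was called higher in PNs (log2 fold change 0.54, edgeR adjusted p = 0.0215), a call lost without DRG4 (0.46, adjusted p = 0.12), without DRG5 (0.38, adjusted p = 0.163), in a fit corrected for length and GC (0.30, adjusted p = 0.19), and with muscle and fat scores as covariates (0.45, adjusted p = 0.37). A count over the whole gene includes reads of exons that Cre leaves in place. Markers of SCs were high in every library, with a summed level of 4800 to 14500 CPM in controls and 8780 to 23100 CPM in PNs. Neuronal markers summed to 1640 to 14200 CPM in 13 libraries and to 34.8 CPM in fast-growing PN 1191. Markers of skeletal muscle summed to 11600 to 41200 CPM in controls, 80.3 to 13400 CPM in slow-growing PNs, and 408 to 8160 CPM in fast-growing PNs. Fat markers summed to 4690 to 6940 CPM, 49.7 to 3760 CPM, and 46.4 to 344 CPM in the same order, with *Lep*, *Plin1*, *Cidea*, and *Cidec* at 0 in some PNs. Fibroblast markers summed to 1960 to 3760 CPM, 1290 to 5640 CPM, and 5550 to 10500 CPM. The part of these tissues in the results was not tested beyond the fits with their scores.

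The level of immune markers differed widely between libraries. Of 13 macrophage and leukocyte markers, 12 were in the table and none of these was at 0 in any library. Their summed level was 241, 1300, and 1050 CPM in controls DRG3, DRG4, and DRG5. It was 302, 703, 254, 81.6, and 196 CPM in slow-growing PNs 1079, 1198A, 1202, 1203, and 1206, and 433 to 1430 CPM in fast-growing PNs, with a median of 958 CPM. The 10 lymphocyte markers in the table summed to 6.77 CPM in DRG3 against 306 and 290 CPM in DRG4 and DRG5, 8.15 to 126 CPM in slow-growing PNs, and 8.33 to 132 CPM in fast-growing PNs. Neutrophil markers summed to 243, 107, and 1610 CPM in DRG3, DRG4, and DRG5 and to 50.3 to 288 CPM in PNs. DRG3 was thus the lowest control in leukocyte and lymphocyte markers but not in neutrophil markers, which were highest in DRG5. DRG3 also differed from DRG4 and DRG5 in other tissue. Its SC markers summed to 14500 CPM against 5350 and 4800 CPM, and its neuronal markers to 6000 CPM against 2820 and 1640 CPM. Its muscle markers summed to 11600 CPM against 26100 and 41200 CPM.

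Among the 10 genes, *Relb* was lower in PNs than in controls, in both slow- and fast-growing tumors, and *Nfkbib* was lower in fast-growing PNs. The kinase gene *Ikbkb* and the main subunit genes *Nfkb1* and *Rela* did not pass the test in any comparison. Fast-growing PNs had more of 9 of the 10 transcripts than slow-growing PNs by the fitted fold change, where 7195 of 15465 genes were positive. Among the 9 was *Nfkbia*, at a log2 fold change of 0.02. None of the 10 passed the adjusted threshold in that comparison, against 1.27% of all genes. DRG3 and slow-growing PN 1203, with the lowest leukocyte marker sums of their groups, were lowest there for 8 and 6 of the genes. Slow-growing PN 1206 and fast-growing PN 1214, also low in these markers, were lowest for 0 and 2.

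**Figure D1:**
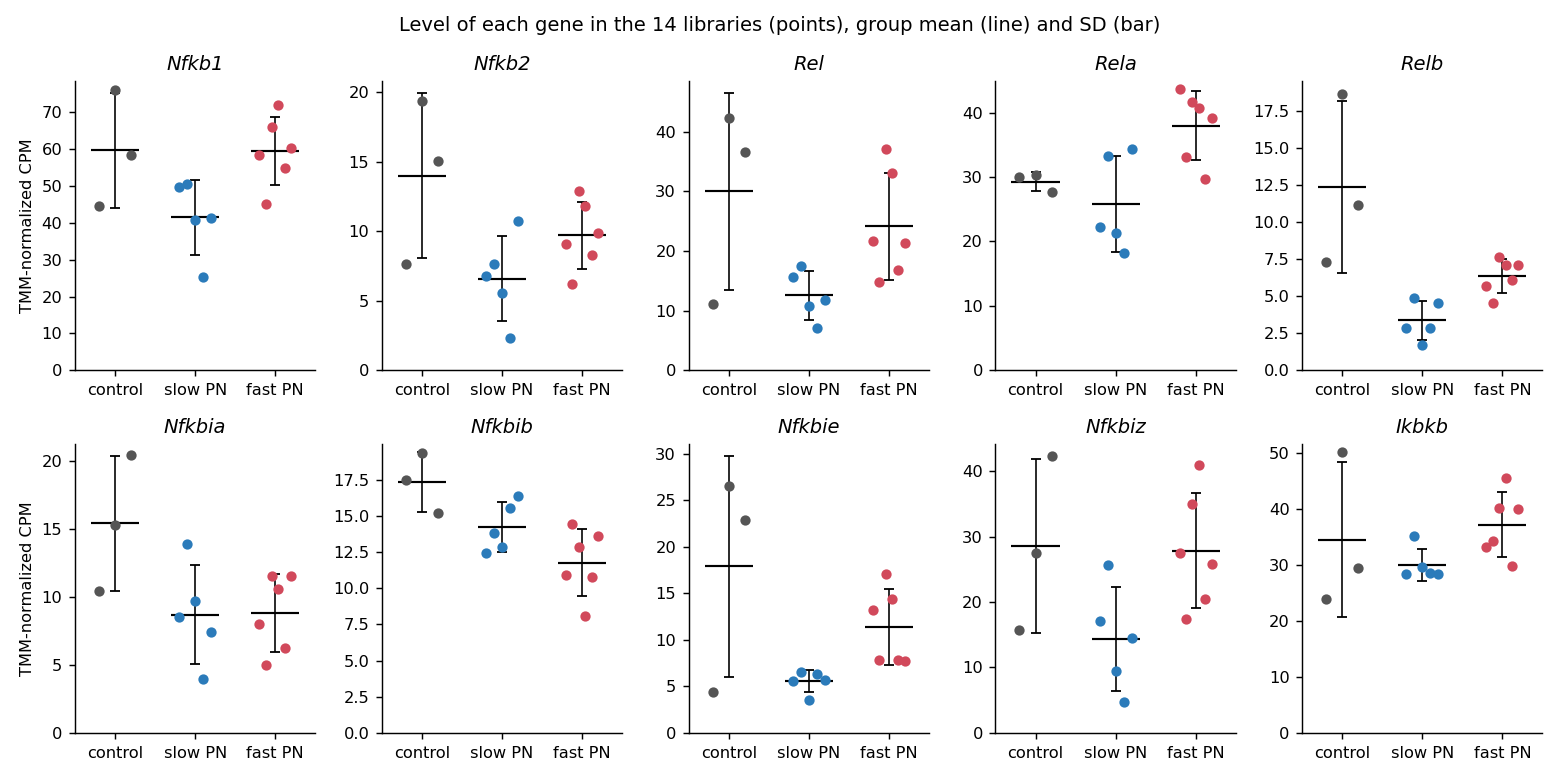
TMM-normalized CPM (vertical axis) of each of the 10 genes in control, slow-growing PN (slow PN), and fast-growing PN (fast PN) libraries; each point is 1 library, the line is the group mean and the bar 1 SD. The *Relb* points of the slow-growing PNs all lie below those of the controls, the *Nfkbie* points of slow- and fast-growing PNs do not overlap, and the control points spread widely for *Rel*, *Nfkbie*, and *Nfkb2*.

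Levels of different genes were compared as CPM per kilobase of the longest transcript, averaged over the 14 libraries. *Nfkb1* (12.8 ± 3.26 CPM per kb, SD) and *Rela* (11.7 ± 2.88) were the most abundant subunit transcripts, and *Nfkb1* was the higher of the pair in 8 of 14 libraries, so that these neighbours did not differ beyond their spread. *Ikbkb* (7.03 ± 1.54), *Nfkbib* (6.71 ± 1.41), *Nfkbia* (6.45 ± 2.76), and *Nfkbiz* (5.63 ± 2.7) followed, each above the next in only 8 or 9 of 14 libraries for the first 3 steps. *Nfkbie* (3.55 ± 2.37), *Rel* (2.85 ± 1.52), *Nfkb2* (2.47 ± 1.12), and *Relb* (2.01 ± 1.29) were the lowest, and neighbours there were in this order in 9 to 12 of 14 libraries. *Rela* exceeded *Ikbkb* in 14 of 14 libraries, which was the clearest step in the order. In controls alone the order differed, with *Nfkbia* (9.76 ± 3.2 CPM per kb, SD, n = 3) and *Nfkbib* (8.42 ± 1.0) above *Ikbkb* (7.12 ± 2.86), and *Relb* (3.78 ± 1.77) above *Nfkb2* (3.64 ± 1.54). The order also depends on the length taken for a gene. Per kilobase of the union of exons, *Rela* led at 10.3 CPM per kb, *Nfkb1* came below *Nfkbiz* at 4.4, and *Ikbkb* came between *Nfkb2* and *Relb* at 1.79.

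*Nfkb1* encodes the precursor of the canonical DNA-binding partner and lies on mm10 chr3:135584655-135691547, minus strand. Its level was 44.7, 76, and 58.4 CPM in controls DRG3, DRG4, and DRG5. In slow-growing PNs it was 49.7, 50.4, 40.6, 25.3, and 41.4 CPM. In fast-growing PNs it ranged from 45 to 72 CPM, with a median of 59.3 CPM. The 3 groups overlapped, with slow-growing PN 1203 the lowest library. The fitted log2 fold change was -0.58 for slow-growing PNs versus controls (95% interval -1.19 to 0.03) and -0.08 for fast-growing PNs versus controls (-0.53 to 0.38).

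*Rela* encodes the canonical transactivating subunit and lies at chr19:5637483-5648130, plus strand. It was the steadiest subunit in controls, at 29.9, 30.2, and 27.6 CPM. It was 22.2, 33.3, 21.2, 18.1, and 34.4 CPM in slow-growing PNs and 29.6 to 43.6 CPM in fast-growing PNs, with a median of 39.9 CPM. In fast-growing PNs, 5 of 6 libraries lay above every control, whereas slow-growing PNs fell on both sides of the controls. Among the subunit genes, only *Rela* had a positive fold change in PNs and in fast-growing PNs against controls. Its log2 fold change was 0.31 in fast-growing PNs (95% interval -0.04 to 0.65, adjusted p = 0.159 in the quasi-likelihood test of edgeR, with Benjamini-Hochberg adjustment over all genes) and 0.13 in all PNs (-0.38 to 0.65, adjusted p = 0.717). With scores of muscle and fat markers as covariates the sign turned to -0.38 and -0.70, also without passing the test.

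*Rel* encodes c-Rel, a subunit prominent in lymphoid and myeloid cells (chr11:23736847-23770970, minus strand). Its level was 11.1 CPM in DRG3 against 42.2 and 36.6 CPM in DRG4 and DRG5. In slow-growing PNs it was 15.7, 17.5, 10.7, 7.05, and 11.8 CPM, and in fast-growing PNs it ranged from 14.9 to 37.1 CPM, with a median of 21.5 CPM. DRG3 was within the range of the slow-growing PNs, DRG4 lay above every PN, and fast-growing PNs overlapped both other groups. The log2 fold change was -1.32 in slow-growing PNs versus controls (95% interval -2.32 to -0.31, adjusted p = 0.0892, edgeR with Benjamini-Hochberg adjustment). Without DRG3 it was -1.71, with an edgeR adjusted p of 0.0166, and *Rel* was then called lower.

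*Relb* encodes the subunit of the noncanonical pathway, and lies at chr7:19606217-19629438, minus strand. Its level was 7.29, 18.7, and 11.2 CPM in controls DRG3, DRG4, and DRG5. It was 2.89, 4.88, 1.74, 2.84, and 4.53 CPM in slow-growing PNs and 4.57 to 7.68 CPM in fast-growing PNs, with a median of 6.6 CPM. These levels rest on 17 to 204 counts per library. Every slow-growing PN lay below every control, and 5 of 6 fast-growing PNs did, with 1179 above DRG3. Over all PNs, 10 of 11 libraries lay below the lowest control.

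*Relb* fell in PNs versus controls by 1.32 on the log2 scale (standard error 0.36, 95% interval -2.09 to -0.54, adjusted p = 0.016 in edgeR). It fell by 1.93 in slow-growing PNs (standard error 0.41, adjusted p = 0.0217) and by 1.03 in fast-growing PNs (standard error 0.30, adjusted p = 0.0253). These comparisons share the 3 control libraries. The call for all PNs was lost without DRG4 (log2 fold change -0.89, adjusted p = 0.177), without DRG5 (-1.38, adjusted p = 0.0521), and in a fit corrected for gene length and GC (-1.15, adjusted p = 0.0507). The call in slow-growing PNs was lost without DRG4 (-1.49, adjusted p = 0.111), DRG5 (-2.01, adjusted p = 0.0702), or 1079 (-1.85, adjusted p = 0.0612). That in fast-growing PNs was lost without DRG4 (-0.60, adjusted p = 0.171), DRG5 (-1.04, adjusted p = 0.0615), or 1053 (-1.0, adjusted p = 0.0519), and with length and GC content (-0.80, adjusted p = 0.0995). With muscle and fat scores as covariates *Relb* kept the call in all PNs (log2 fold change -3.05, edgeR adjusted p = 0.0132), but the adjusted p was 0.566 for slow-growing PNs (log2 fold change -2.82) and 0.803 for fast-growing PNs (-1.96). In slow- and in fast-growing PNs that fit called no gene of the whole table, so the lost calls are not particular to *Relb*.

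The share of *Relb* among subunit transcripts was also lower, but it is taken from the same *Relb* levels and is not independent of them. Per kilobase of the longest transcript, *Relb* made up 8.1%, 12.5%, and 9.35% of the summed level of the 5 subunit genes in controls DRG3, DRG4, and DRG5. In slow-growing PNs the share was 3.54%, 4.93%, 2.52%, 5.72%, and 4.87%, and in fast-growing PNs it was 4.68%, 4.98%, 5.6%, 5.17%, 6.11%, and 5.96%. No PN reached the lowest control, DRG3. With the union of exons as the length, the shares were 10.2%, 15.6%, and 11.5% in controls and at most 7.9% in PNs. *Rela* took 27.9% and 24.3% of the subunit level in DRG5 and DRG4, but 40.1% in DRG3 and 32.9% to 44.6% in PNs. The share of *Nfkb1* stayed between 38.6% and 39.9% in controls and between 35.2% and 48.1% in PNs. These shares were not tested.

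**Figure D2:**
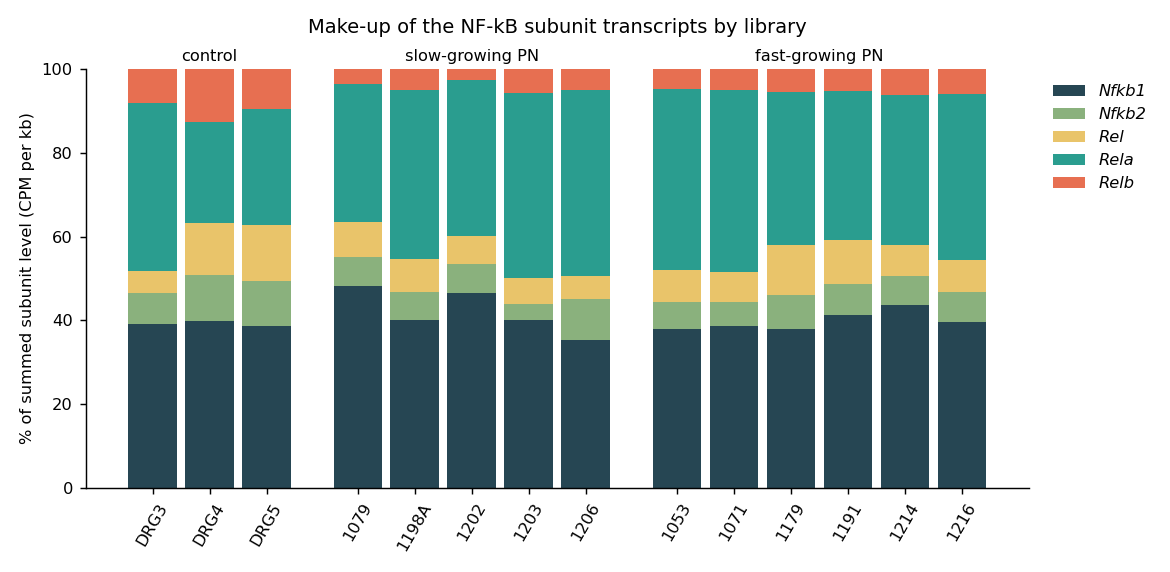
Share (%) of each subunit gene in the summed subunit level, in CPM per kilobase of the longest transcript, with 1 bar for each library. The *Relb* segment is 8.1% to 12.5% in the 3 controls and 2.52% to 6.11% in the 11 PNs.

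*Nfkb2*, the partner gene of *Relb* (chr19:46304320-46312385, plus strand), had 7.63, 19.3, and 15 CPM in controls. It had 6.76, 7.67, 5.51, 2.29, and 10.7 CPM in slow-growing PNs and 6.21 to 12.9 CPM in fast-growing PNs, with a median of 9.49 CPM. DRG3 was again the lowest control, inside the range of the PNs. The log2 fold change was -1.14 in slow-growing PNs (95% interval -2.22 to -0.07) and -0.60 in fast-growing PNs (-1.32 to 0.12), and neither passed the adjusted threshold. Without DRG3 *Nfkb2* was called lower in fast-growing PNs (-0.91, edgeR adjusted p = 0.036). With each library left out in turn, its log2 fold change there ran from -0.91 to -0.30. Exons of *Psd* and of a noncoding gene overlap 18.1% of its exon bases on the opposite strand, and it is not stated whether the counting used strand.

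The cytoplasmic inhibitors behaved differently from each other. *Nfkbia* encodes IκBα, the rapidly resynthesized feedback inhibitor (chr12:55489410-55492647, minus strand). Its level was 10.5, 15.3, and 20.4 CPM in controls, 8.5, 13.9, 9.7, 3.94, and 7.42 CPM in slow-growing PNs, and 4.98 to 11.6 CPM in fast-growing PNs, with a median of 9.28 CPM. Slow- and fast-growing PNs had nearly the same mean, 8.69 ± 3.62 CPM (SD, n = 5) and 8.82 ± 2.84 CPM (SD, n = 6), and 7 of 11 PNs lay below every control. The log2 fold change for PNs versus controls was -0.83 (95% interval -1.5 to -0.16, adjusted p = 0.0627 in edgeR). It passed without DRG3 (-1.04, adjusted p = 0.0432) and without 1198A (-0.92, adjusted p = 0.0388), and in fast-growing PNs it passed without DRG3 (-1.10, adjusted p = 0.0397). Between fast- and slow-growing PNs the log2 difference was 0.02 (-0.68 to 0.72).

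*Nfkbib* encodes IκBβ, an inhibitor with slower turnover (chr7:28758251-28767512, minus strand). It was 17.5, 19.3, and 15.2 CPM in controls, 12.5, 13.8, 12.9, 15.6, and 16.4 CPM in slow-growing PNs, and 8.09 to 14.4 CPM in fast-growing PNs, with a median of 11.9 CPM. Like *Rela*, and unlike the other 8 genes, it was not lowest in DRG3 among controls. Its lowest value was in fast-growing PN 1191, the library with the highest leukocyte and the lowest neuronal marker sum. Its highest value was in DRG4, where the leukocyte marker sum was also high (1300 CPM). Every fast-growing PN lay below every control. *Nfkbib* fell by 0.63 on the log2 scale in fast-growing PNs (standard error 0.19, 95% interval -1.06 to -0.21, adjusted p = 0.0305, edgeR with Benjamini-Hochberg adjustment).

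This change was small and close to the threshold. In edgeR the adjusted p of *Nfkbib* in fast-growing PNs was 0.058 without DRG3, 0.125 without DRG4, 0.0712 without DRG5, 0.0602 without 1053, 0.0611 without 1179, 0.0586 without 1214, and 0.0539 without 1216, with log2 fold changes between -0.66 and -0.54. It was 0.323 in the fit corrected for length and GC (log2 fold change -0.23) and 0.621 with muscle and fat scores as covariates (-1.56). The fit with these scores called no gene of the whole table in fast-growing PNs, so the call lost there is not particular to *Nfkbib*. Exons of *Sirt2* and *Ccer2* overlap 16.4% of the exon bases of *Nfkbib* on the opposite strand, so reads of these genes may have been counted here.

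*Nfkbie* encodes IκBε (chr17:45555703-45563169, plus strand), and was the only member whose slow- and fast-growing PNs did not overlap. Its level was 4.37, 26.5, and 22.8 CPM in controls. It was 5.54, 6.54, 3.57, 6.32, and 5.69 CPM in slow-growing PNs, and 13.2, 7.85, 17.1, 14.4, 7.79, and 7.73 CPM in fast-growing PNs 1053, 1071, 1179, 1191, 1214, and 1216. Every fast-growing PN lay above every slow-growing PN, which held for 2.13% of the 15465 genes tested in that direction. DRG3 lay within the slow-growing PNs and the other controls above all PNs. The fold change between fast- and slow-growing PNs was 1.03 on the log2 scale (standard error 0.27, 95% interval 0.44 to 1.62), with an adjusted p of 0.0684 in edgeR. DESeq2 gave an adjusted p of 0.0105. Against controls the log2 fold change of slow-growing PNs was -1.76 (adjusted p = 0.0552 in edgeR), and without DRG3 it was -2.22 (adjusted p = 0.00454). Without DRG3 it was also called lower in all PNs (-1.51, adjusted p = 0.0171) and in fast-growing PNs (-1.20, adjusted p = 0.0266).

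*Nfkbiz* encodes IκBζ, an inducible nuclear protein that acts as a coactivator of selected targets (chr16:55811375-55838899, minus strand). Its level was 15.8, 27.5, and 42.3 CPM in controls, 17.2, 25.6, 9.5, 4.76, and 14.6 CPM in slow-growing PNs, and 17.5 to 40.9 CPM in fast-growing PNs, with a median of 26.7 CPM. Controls and fast-growing PNs had like means, 28.5 ± 13.3 CPM (SD, n = 3) and 27.9 ± 8.8 CPM (SD, n = 6), and 4 of 6 fast-growing PNs lay above every slow-growing PN. The log2 fold change between fast- and slow-growing PNs was 0.95 (95% interval 0.13 to 1.78), with an adjusted p of 0.183 in edgeR.

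*Ikbkb*, the kinase gene (chr8:22659212-22706589, minus strand), overlapped between all groups. Its level was 23.9, 50.2, and 29.4 CPM in controls, 28.3, 35.2, 29.6, 28.6, and 28.4 CPM in slow-growing PNs, and 29.9 to 45.7 CPM in fast-growing PNs, with a median of 37.1 CPM. No PN lay outside the range of the controls. The log2 fold change of PNs versus controls was -0.04 (95% interval -0.48 to 0.39) and that of fast- versus slow-growing PNs 0.31 (0.02 to 0.59), with edgeR adjusted p of 0.904 and 0.211.

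The members were then counted as a group beside the background of all genes. The counts of adjusted calls against controls lay near the background and are no result about the members. In PNs versus controls, 1 of the 10 genes passed an adjusted p of 0.05 in edgeR, and it was lower, against 26.3% of the 16283 genes tested in either direction and 13.4% lower. Their median log2 fold change was -0.57, against 0.10 over all genes tested, and 9 of 10 were negative. With an unadjusted p under 0.05, 4 genes were lower (*Relb*, *Nfkbia*, *Nfkbib*, and *Nfkbie*), against 18.8% of genes. The adjusted count of 1 became 0 without DRG4 or without DRG5, 3 without DRG3, and 2 without 1198A, 1206, or 1191.

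In slow-growing PNs versus controls, 1 of 10 passed and was lower (*Relb*), against 11.3% of 15714 genes in either direction and 7.13% lower. *Relb* was also the 1 gene whose groups did not overlap, against 12% of genes lower in that way, and 4 were lower with an unadjusted p under 0.05 (*Nfkb2*, *Rel*, *Relb*, and *Nfkbie*), against 17% of genes. All 10 fold changes were negative, with a median log2 fold change of -0.96 against 0.04 over all genes. This count became 0 without DRG4, DRG5, or 1079, and 3 without DRG3. In fast-growing PNs versus controls, 2 of 10 passed and were lower (*Relb* and *Nfkbib*), against 31.4% of 16037 genes and 16.7% lower. *Nfkbib* was the 1 gene without overlap, against 14.9% of genes, and 3 were lower with an unadjusted p under 0.05 (with *Nfkbia*), against 21.5%. The median there was -0.50 against 0.02, and *Rela* and *Ikbkb* were positive. The count became 0 without DRG4, DRG5, or 1053, 1 without 1179, 1214, or 1216, and 4 without DRG3.

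**Figure D3:**
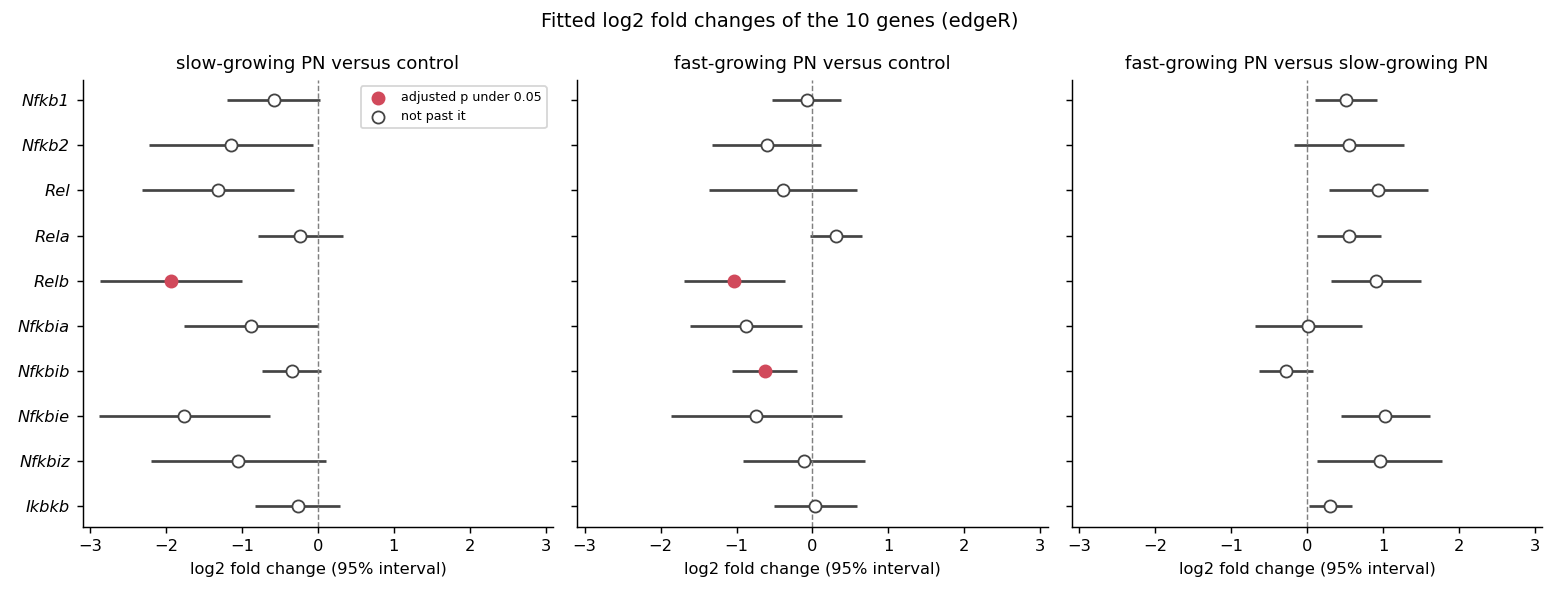
Fitted log2 fold change of each gene (horizontal axis) with its 95% interval from edgeR, in slow-growing PNs versus controls, fast-growing PNs versus controls, and fast- versus slow-growing PNs; filled points passed an adjusted p of 0.05. *Relb* is filled in both comparisons with controls (-1.93 and -1.03), *Nfkbib* in fast-growing PNs (-0.63), and no point in the comparison of growth rates, where 9 of 10 points lie above 0. Of all genes tested between growth rates, 7195 of 15465 were above 0.

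In fast- versus slow-growing PNs, 0 of 10 genes passed in edgeR, against 1.27% of 15465 genes. With an unadjusted p under 0.05, 7 genes were higher in fast-growing PNs (*Nfkb1*, *Rel*, *Rela*, *Relb*, *Nfkbie*, *Nfkbiz*, and *Ikbkb*), against 11.9% of genes higher and 20.4% in either direction. Their median log2 fold change was 0.55 against -0.03 over all genes. The largest were *Nfkbie* (1.03), *Nfkbiz* (0.95), *Rel* (0.94, 95% interval 0.29 to 1.59), and *Relb* (0.91, 0.32 to 1.5), with edgeR adjusted p of 0.0684, 0.183, 0.108, and 0.0895. DESeq2, which called 5.96% of genes higher where edgeR called 0.802%, called 3 members higher (*Rel*, *Relb*, and *Nfkbie*), and limma voom called 0. Without slow-growing PN 1198A, edgeR called *Relb* (log2 fold change 1.08, adjusted p = 0.0388).

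The leukocyte marker sum differed between the same groups, at 81.6 to 703 CPM in slow-growing PNs and 433 to 1430 CPM in fast-growing PNs. Other marker sums did so too. In the same order, fibroblast markers summed to 1290 to 5640 CPM and 5550 to 10500 CPM, and fat markers to 49.7 to 3760 CPM and 46.4 to 344 CPM. These cannot be told apart here, and the part of each was not tested beyond the fits with scores. DRG3, the control with the lowest leukocyte sum, was the lowest control for 8 of the 10 genes (*Rela* and *Nfkbib* were the exceptions). DRG3 was also the control with the highest SC and neuronal marker sums and the lowest muscle marker sum. Slow-growing PN 1203, with the lowest leukocyte sum of all, was the lowest slow-growing PN for 6 genes, whereas 1206, with the next lowest leukocyte sum (196 CPM), was lowest for 0 and highest for 3 (*Nfkb2*, *Rela*, and *Nfkbib*). Library 1203 also had the highest neuronal marker sum (14200 CPM) and the lowest fibroblast marker sum (1290 CPM) of all libraries. Among fast-growing PNs, 1214 had the lowest sum (433 CPM) and was lowest for 2 genes, while 1071 (469 CPM) was lowest for 6. The fast-growing PNs 1179 and 1191, with the highest sums, held both highest places for *Nfkb1*, *Nfkb2*, *Rel*, *Nfkbie*, *Nfkbiz*, and *Ikbkb*.

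**Figure D4:**
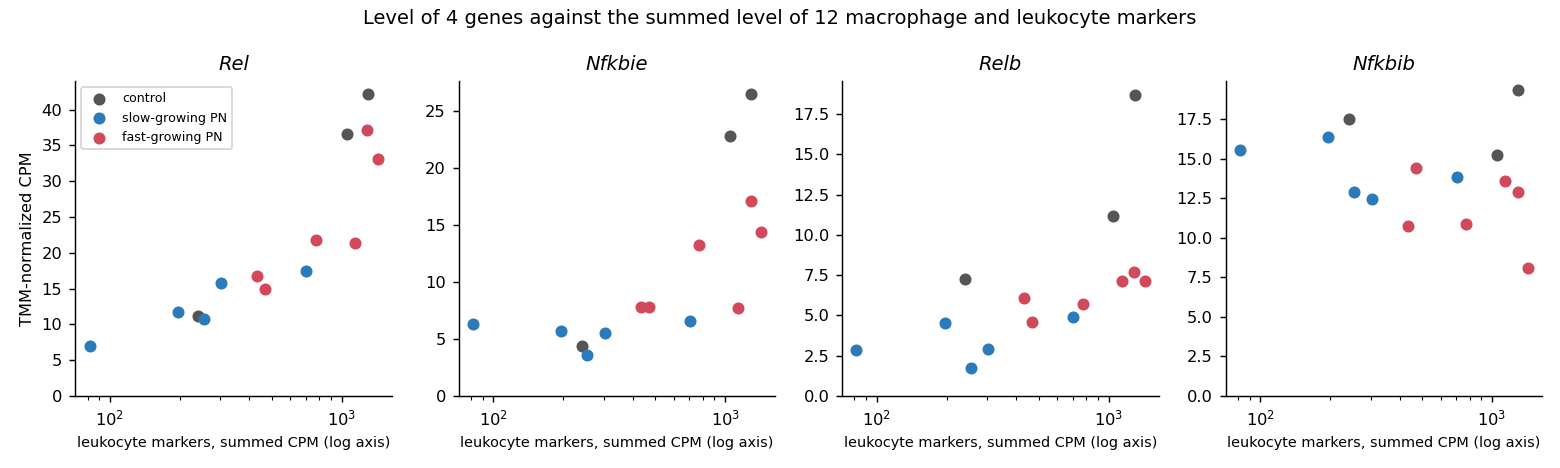
TMM-normalized CPM of *Rel*, *Nfkbie*, *Relb*, and *Nfkbib* (vertical axis) against the summed CPM of 12 macrophage and leukocyte markers (horizontal log axis) in the 14 libraries, colored by group. *Rel* was 7.05 CPM at the lowest marker sum (1203) and 33.1 CPM at the highest (1191), while *Nfkbib* was 15.6 and 8.09 CPM there, and the *Relb* points of controls lie above PNs of like marker sum. *Nfkbib* did not fall with the sum throughout, at 19.3 CPM in DRG4 (sum 1300 CPM) and 12.5 CPM in 1079 (sum 302 CPM).

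With the leukocyte score (the mean log2 of CPM + 1 over the markers) in the fit, which was chosen once the data had been seen, most fold changes between fast- and slow-growing PNs were closer to 0. They were -0.03 for *Nfkb1*, -0.07 for *Rel*, 0.07 for *Rela*, -0.22 for *Nfkbiz*, and -0.04 for *Ikbkb*, and 0.40 and 0.59 for *Relb* and *Nfkbie*. *Nfkb2* was at -0.26 and *Nfkbib* at -0.15, while *Nfkbia* moved away from 0, from 0.02 to -1.16 (adjusted p = 0.309 in edgeR). That fit called 0 genes of the whole table, against 196 without the score. Against controls, *Relb* stayed lower in all PNs (log2 fold change -1.18, edgeR adjusted p = 0.00177) and in fast-growing PNs (-1.18, adjusted p = 0.00152). In slow-growing PNs it was -1.37, with an adjusted p of 0.126. In fast-growing PNs, 6 members were called lower with the score, against 20.8% of all genes in that fit. *Relb* and *Nfkbib* (-0.63) had passed without it, and *Nfkbia* (-1.17), *Nfkbie* (-0.88), *Nfkb2* (-0.81), and *Rel* (-0.64) were added.

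**Figure D5:**
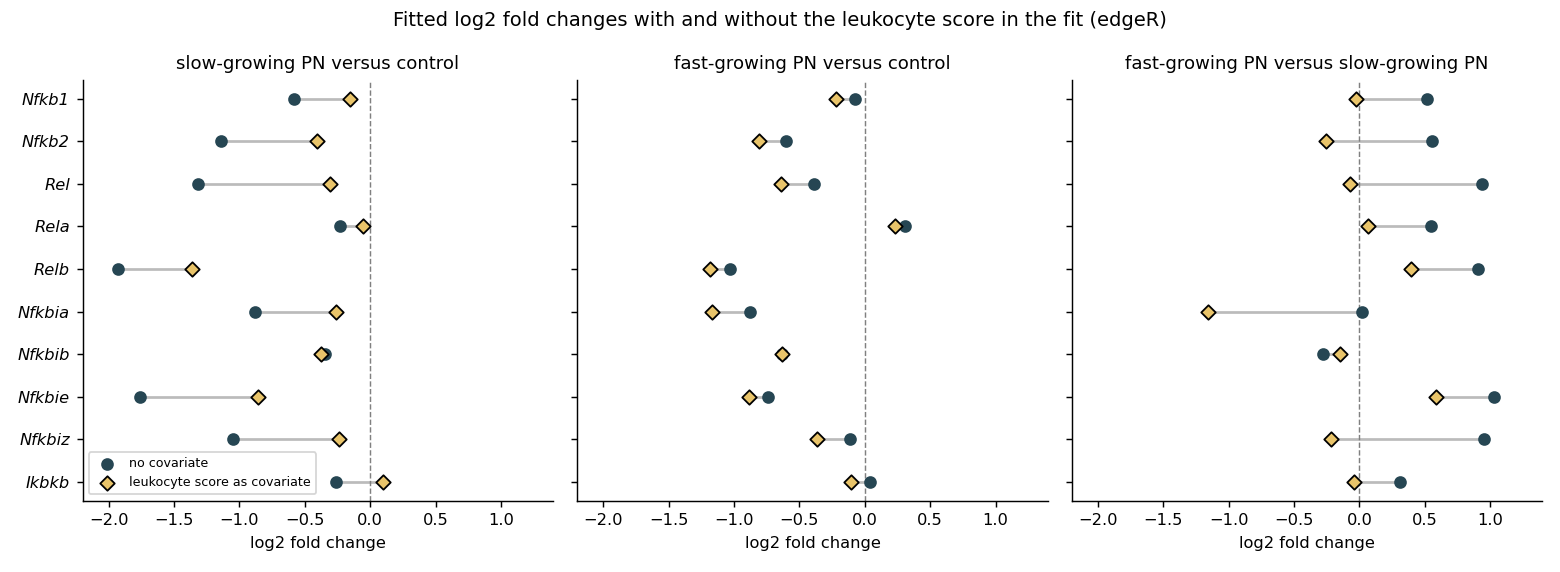
Fitted log2 fold change of each gene (horizontal axis) without a covariate (circles) and with the leukocyte score as a covariate (diamonds), in 3 comparisons. Between fast- and slow-growing PNs the diamonds of *Nfkb1*, *Rel*, *Rela*, and *Ikbkb* sit near 0, and *Relb* remains the lowest or near the lowest point against controls, at -1.37 and -1.18.

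The rest of the pathway was read from lists of genes. Of 11 genes of the IKK complex and other IκB proteins, *Nfkbid* alone was lower in PNs versus controls (log2 fold change -2.14, edgeR adjusted p = 0.0351), against 13.4% of all genes. It was 0.772, 6.14, and 5.42 CPM in controls and 0.0742 to 1.97 CPM in PNs, so that DRG3 lay within the range of the PNs. In 1214 (0.0742 CPM) and 1071 (0.137 CPM) it was below the floor of 3 counts (0.223 and 0.205 CPM). *Bcl3*, which encodes a nuclear IκB protein, was the 1 gene of this list lower in slow-growing PNs (-1.74, adjusted p = 0.0335), against 7.13% of all genes. The other IKK subunit genes *Chuk* and *Ikbkg* had fold changes of 0.07 and 0.25 in PNs, without passing. The median of this list was 0.04 in PNs, where it was -0.57 for the 10 genes.

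Of 24 adaptor and ubiquitin ligase genes upstream of IKK, 3 were lower in PNs and 0 higher, near the 13.4% of all genes called lower, with a median log2 fold change of -0.23. They were *Irak2* (-0.75) and *Irak1* (-0.55), kinases of the interleukin-1 receptor pathway, and *Rbck1* (-0.41), a subunit of the linear ubiquitin ligase. Of 12 negative regulators, 3 were lower and 0 higher, again against 13.4%, with a median of -0.18. They were *Otulin* (-0.70), which removes linear ubiquitin, *Commd1* (-0.66), and *Tnip1* (-0.58). *Tnfaip3*, which encodes the feedback inhibitor A20, did not pass, at -1.15 (adjusted p = 0.0638 in edgeR).

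Among 15 receptor genes, 1 was higher in PNs and 0 lower, against 12.9% of all genes called higher, with a median log2 fold change of 0.25. This gene, *Il1rap*, the shared coreceptor for interleukin-1 and interleukin-33, rose in PNs by 2.28 on the log2 scale and in fast-growing PNs by 2.65. It was 23.7, 14.1, and 10.9 CPM in controls, 18.6 to 98.3 CPM in slow-growing PNs, and 79.3 to 175 CPM in fast-growing PNs. *Tnfrsf12a*, the receptor of the cytokine TWEAK, was higher in fast-growing PNs (1.15), where 2 receptor genes were called higher against 14.8% of all genes. Of 12 ligand genes, 9 were tested in PNs and 1, *Mif*, was lower (-1.51), against 13.4% of all genes, at 77.5 to 94.7 CPM in controls and 11.3 to 50.1 CPM in PNs. *Mif* has processed pseudogenes that may share its reads. In fast-growing PNs *Il33* was higher (0.84) and *Mif* lower (-1.65), 1 of 8 ligand genes each way against 14.8% and 16.7% of all genes. In slow-growing PNs *Il1b* (-3.22) and *Mif* (-1.45) were lower, 2 of 8 against 7.13%. With each library left out in turn, *Il1b* ran from -3.72 to -1.68 there.

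Of 27 textbook NF-κB target genes, 21 were tested in PNs versus controls, with 5 lower and 0 higher, against 13.4% and 12.9% of all genes, and a median log2 fold change of -0.95, against 0.10 over all genes. *Ccl5* (-5.16), a chemokine that attracts T cells, was 1.03, 128, and 36.9 CPM in controls and at most 5.48 CPM in PNs, so that DRG3 lay within the range of the PNs. Without DRG4 its log2 fold change was -3.62 in PNs, -3.23 in fast-growing PNs, and -4.63 in slow-growing PNs, where it was -6.81 without 1079. *Sod2* (-1.65), a mitochondrial antioxidant enzyme, was 251 to 278 CPM in controls and 48.6 to 131 CPM in PNs. *Traf1* (-1.89), *Vcam1* (-1.48), and *Gadd45b* (-0.95) were the other 3, the last with an edgeR adjusted p of 0.0498. The log2 fold change of *Traf1* was -1.19 without DRG4 and -2.41 without DRG3. Endothelial markers, which summed to 384 to 520 CPM in controls, 109 to 502 CPM in slow-growing PNs, and 147 to 361 CPM in fast-growing PNs, were lower for 2 of 8 genes in PNs and 4 of 8 in fast-growing PNs. Their part in these targets was not tested. In slow-growing PNs 5 of 21 targets were lower, against 7.13% of all genes, among them *Ccl5* (-6.19), *Psmb9* (-2.41), *Mmp9* (-2.14), and *Icam1* (-1.91). The log2 fold change of *Mmp9* there ran from -2.54 to -1.05 with each library left out in turn. In fast-growing PNs *Ccl5* (-4.74) and *Sod2* (-2.07) were lower, and *Ccl2* (2.87) and *Bcl2l1* (1.04) were higher, each count of 2 of 21 being below the 16.7% lower and 14.8% higher over all genes. Neither direction held for the whole list.

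Between fast- and slow-growing PNs, 1 textbook target passed. *Tap1*, the peptide transporter of antigen presentation, was higher by 1.56 (edgeR adjusted p = 0.0484), with 5.22 to 13 CPM in slow-growing and 15.8 to 55.6 CPM in fast-growing PNs. Of the 20 targets tested there, 18 were positive, with a median of 0.62, where 7195 of 15465 genes were positive. With an unadjusted p under 0.05, 10 of 15 receptor genes were higher in fast-growing PNs, against 11.9% of all genes, and 0 passed the adjusted threshold in edgeR. The median log2 fold change was 0.97 for the receptor genes and 1.79 for the 12 leukocyte markers, of which 0 passed as well, and the part of the markers in the receptor levels was not tested. The call of *Tap1* was lost without any 1 of 1079, 1202, 1206, 1053, 1179, 1191, 1214, or 1216 (adjusted p 0.0597 to 0.129) and under each other fit except DESeq2, with an adjusted p of 0.0531 with RLE factors, 0.0523 without a filter, 0.0564 with limma voom, 0.079 with one fit of all libraries, 0.0503 with length and GC, 0.443 with muscle and fat scores, and 0.501 with the leukocyte score. The fits with muscle and fat scores or with the leukocyte score called no gene of the whole table in this comparison.

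A list of 8 targets was taken from the text of the study, so its direction is not independent evidence. *Nr2f2*, a nuclear receptor gene, was higher in PNs (1.55), and in fast-growing PNs *Nr2f2* (1.77), the growth factor gene *Pdgfa* (1.41), and the intermediate filament gene *Vim* (0.66) were higher. In slow-growing PNs *Il1b* was lower and 0 were higher. Over all genes, 12.9% were higher in PNs, 14.8% were higher in fast-growing PNs, and 7.13% were lower in slow-growing PNs.

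Many of these pathway calls depended on single libraries or on the fit. Of the 14 pathway genes named for PNs versus controls by the rule on size, 9 lost the call without DRG4 (adjusted p 0.0625 to 0.275), 10 without DRG5 (0.0524 to 0.206), 1 without DRG3 (*Rbck1*, 0.0527), and 1 without 1216 (*Tnip1*, 0.0503). *Ccl5*, *Sod2*, *Mif*, and *Commd1* kept it without any 1 library. In fast-growing PNs, 8 of 15 kept the call without any 1 library (*Il1rap*, *Tnfrsf12a*, *Mif*, *Commd1*, *Ccl5*, *Sod2*, *Nr2f2*, and *Pdgfa*), while 7 lost it without DRG4 (adjusted p 0.0544 to 0.182), 7 without DRG5 (0.0502 to 0.170), 5 without 1053 (0.0518 to 0.0804), 2 without 1216, and 1 without DRG3, 1071, 1179, or 1214. In slow-growing PNs, *Mif* alone of 10 kept it without any 1 library. There 8 lost it without DRG4 (0.0746 to 0.176), DRG5 (0.106 to 0.296), 1079 (0.054 to 0.0887), or 1202 (0.056 to 0.107), 5 without 1198A, and 4 without 1203 or 1206. With muscle and fat scores as covariates, 0 of the 14, 10, and 15 calls against controls remained, whereas the fold changes moved both ways. In slow- and in fast-growing PNs that fit called 0 genes of the whole table, so no call could remain there. In PNs it called far fewer genes of the table than the fit without the scores. In PNs the log2 fold change of *Ccl5* was then -6.94, of *Traf1* -2.85, of *Vcam1* -2.27, and of *Irak2* -1.46, all further from 0, and that of *Il1rap* was 0.55, of *Nr2f2* 0.58, and of *Sod2* -0.84, all closer to 0.

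Other fits also removed calls. With length and GC, 6 of the 14 calls in PNs were lost (*Otulin*, *Irak1*, *Irak2*, *Nfkbid*, *Rbck1*, and *Tnip1*), 8 of 10 in slow-growing PNs, and 4 of 15 in fast-growing PNs. The log2 fold changes of these 6 in PNs were then -0.15, -0.48, -0.62, -1.72, -0.17, and -0.41 in that order. Without the correction they were -0.70, -0.55, -0.75, -2.14, -0.41, and -0.58. With limma voom, 4 of 14 were lost in PNs (*Ccl5*, *Nfkbid*, *Traf1*, and *Vcam1*), 4 of 10 in slow-growing PNs, and 2 of 15 in fast-growing PNs. With the leukocyte score, 0 of 14 were lost in PNs, 9 of 10 in slow-growing PNs, and 1 of 15 in fast-growing PNs (*Il33*). With one fit of all libraries, 0 of 14 were lost in PNs, 1 of 10 in slow-growing PNs (*Mmp9*, adjusted p = 0.171 in edgeR), and 6 of 15 in fast-growing PNs (*Bcl2l1*, *Fbxw11*, *Il33*, *Rbck1*, *Tnfrsf12a*, and *Vim*, adjusted p 0.0719 to 0.154).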

How the data were processed

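Bulk RNA-seq libraries of DRGs and PNs were amplified by the authors with the Ovation RNA-Seq System v2. Per the submitters' processing notes, CASAVA 1.4, FastQC 0.11.0, TopHat2 2.0.9, featureCounts 1.5.2, and edgeR 3.16.5 were used with mm10. The authors deposited raw counts per gene and a table of log2 TMM values. All columns of the deposited log2 table share this unit, also those headed by a number alone. Of this table, which lists 16382 genes and all 10 members, only levels were read (*Relb* mean 3.64 in controls and 2.24 in PNs). No column was without a sample (0).

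From the counts, genes were filtered with filterByExpr and scaled by TMM in edgeR 4.0.16 (R 4.3.3). Each comparison was fitted on its own groups with the quasi-likelihood test, and p-values were adjusted by Benjamini and Hochberg over all genes tested, with 0.05 as the threshold. The standard error is the log2 fold change divided by the root of F, and 95% intervals use the total degrees of freedom of edgeR. CPM are TMM-normalized. A floor of 3 counts equals 0.167 to 0.313 CPM by library and covers counting error only. Alternatives were RLE factors, no filter, DESeq2 1.42.0, limma voom 3.58.1, one fit of all libraries, muscle and fat scores as covariates, removal of the trend with length and GC content, and each library left out; the leukocyte score as a covariate was added after seeing the data. Scores are the mean log2(CPM + 1) of a list. Fits were tested on simulated data.

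All 10 genes are described. From each pathway list, up to 4 genes past the threshold per comparison were named, those with the largest fold changes and a mean of at least 1 CPM, and *Nf1*. *Gadd45b*, *Chuk*, *Ikbkg*, and *Tnfaip3* were named outside this rule after their values were seen. The members and lists were chosen with earlier results of these data known. Symbols were matched to GENCODE M21 for position, length, and GC content (22750 by symbol, 935 by an older symbol, 377 unmatched). Labels give no batch. Figures were drawn in Python 3.11.15 with matplotlib 3.10.9.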

Additional observations from a re-analysis of the deposited data

Results flagged for a closer look

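In 20 combinations of gene and group with 4 to 10 libraries, 1 library stood far from the others of its group. *Ikbkb* was 35.2 CPM in slow-growing PN 1198A, while the other 4 slow-growing PNs lay between 28.3 and 29.6 CPM. By chance about 1 in 20 groups would be marked so. Among slow-growing PNs, 1198A also had the highest leukocyte marker sum (703 CPM) and the highest level of 7 of the 10 genes; the part of this in the *Ikbkb* level was not tested.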

How the results depend on the processing

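Over 740 fold changes of single members under an alternative, 663 kept their direction and side of the threshold, 29 passed it only under the alternative, 22 lost it, and 26 changed sign; the cause was not tested. Signs changed for *Ikbkb* in PNs versus controls with limma voom (0.017) and the leukocyte score (0.049), and in slow-growing (0.10) and fast-growing PNs (-0.10) with that score. With muscle and fat scores they changed for *Rela* in PNs (-0.70) and fast-growing PNs (-0.38) and *Ikbkb* in fast-growing PNs (-0.35), and with length and GC content for *Nfkbib* in slow-growing PNs (0.048). Between fast- and slow-growing PNs, the leukocyte score turned *Nfkb1* (-0.028), *Nfkb2* (-0.26), *Rel* (-0.071), *Nfkbia* (-1.16), *Nfkbiz* (-0.22), and *Ikbkb* (-0.038). With each library left out in turn, *Ikbkb* ran from -0.24 to 0.33 in PNs, -0.48 to 0.12 in slow-growing, and -0.18 to 0.41 in fast-growing PNs versus controls, *Nfkb1* from -0.26 to 0.14 and *Nfkbiz* from -0.41 to 0.35 in fast-growing PNs versus controls, and *Nfkbia* from -0.17 to 0.25 between fast- and slow-growing PNs.

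The count of members called in PNs versus controls was 1, and 3 with DESeq2, with one fit of all libraries, or with the leukocyte score, 0 with length and GC content, and 0 to 3 with a library left out. In slow-growing PNs it was 1, and 3 with DESeq2 or one fit, 0 with muscle and fat or leukocyte scores, and 0 to 3 with a library left out. In fast-growing PNs it was 2, and 0 with muscle and fat scores or with length and GC content, 6 with the leukocyte score, and 0 to 4 with a library left out. Between growth rates it was 0, 3 with DESeq2, and 0 to 1 with a library left out.

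Over all genes, 4283 were called in PNs versus controls, 513 with muscle and fat scores, and 2061 to 4779 with a library left out. In slow-growing PNs 1769 were called, 3529 with DESeq2, 3280 with one fit, 0 with muscle and fat scores, 1086 with length and GC content, 751 with the leukocyte score, and 599 to 2454 with a library left out. In fast-growing PNs 5043 were called, 0 with muscle and fat scores, and 3342 to 5247 with a library left out. Between growth rates 196 were called, 130 with RLE factors, 1592 with DESeq2, 34 with limma voom, 423 with one fit, 0 with muscle and fat or leukocyte scores, and 2 to 1194 with a library left out.

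No paired analysis was possible because the labels give the groups no shared replicate numbers. The 3 controls differ in immune markers (DRG3 low in leukocyte and lymphocyte markers, DRG5 high in neutrophil markers). DRG3 was also high in SC and neuronal markers and low in muscle markers. With 3 controls, calls against controls are sensitive to a single library, and the lowest members rest on few counts, down to 17 for *Relb*.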
